A study of Mus musculus with 12 samples.

Results

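Of the 56860 genes in the count table, 39 encode proteins of DNA replication and S phase, and their RNA levels are described here across 12 mouse mammary tumours. The genes were chosen by name and function from a list of names, with earlier results of these data known. All 39 were present and tested. They are ordered by role: the MCM2-7 helicase, the factors that activate it, origin licensing, the DNA polymerases, the sliding clamp and its loader, lagging strand enzymes and RPA, nucleotide supply, cyclin E with E2F1, and chromatin assembly with histone supply.

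Cells copy their DNA once per cycle. In G1 phase the origin recognition complex, Cdc6 and Cdt1 load the ring-shaped MCM2-7 helicase onto origins, and at the start of S phase Cdc45 and the GINS complex turn it into an active helicase. Polymerase alpha with primase then lays primers, which the polymerases epsilon and delta extend while held by the clamp Pcna, and Fen1 and Lig1 join the lagging strand pieces. Many of these genes are transcribed under the E2F factors that the retinoblastoma protein restrains, so their RNA is known to be high in tissue with many dividing cells, such as tumours of the mammary epithelium.

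All mice carried MMTV-PyMT, a transgene that expresses the polyoma middle T oncogene from the mouse mammary tumour virus promoter, mainly in mammary epithelium. The design text gives WT tumours MMTV-Cre as well, while their strain label names only MMTV-PyMT. C3_KO tumours carried MMTV-Cre with the C3Tdt allele of complement component C3. S1pr1_KO tumours carried MMTV-Cre with S1pr1fl/fl, the floxed gene of a sphingosine-1-phosphate receptor. Each genotype had 4 primary tumours, taken at 4.5 months. The study asked how conditional loss of C3 or S1pr1 affects primary tumours. Cre under the MMTV promoter acts mainly in epithelium, and the labels do not say in which cells of these tumours the gene was lost. Whether each tumour came from a mouse of its own is not in the labels, and p-values measure only the spread between these samples.

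Total counts ran from 230431880 to 484002378 per library. Neither targeted gene parted its strain from WT: C3 had 101 ± 58.2 CPM in WT against 59.7 ± 17.6 CPM in C3_KO (SD, n = 4; log2 fold change -0.76, SE 0.49, edgeR adjusted p = 0.765), and S1pr1 5.21 ± 2.63 CPM in WT against 4.64 ± 2.35 CPM in S1pr1_KO (SD, n = 4; -0.17, SE 0.43, edgeR adjusted p = 0.874). CPM are counts per 1000000 counts of a library after TMM scaling, edgeR's default between libraries. Gene counts do not show whether an exon was lost. Libraries stood apart in other transcripts: summed milk protein genes reached 95518 CPM in C3_KO replicate 3, against 1289 to 5951 CPM in the other libraries, and summed salivary genes reached 189310 and 5619 CPM in S1pr1_KO replicates 1 and 4. All 15 markers of luminal mammary epithelium were detected in all 12 libraries.

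The promoters of the replication genes were examined for the E2F motif, since that is the feature known to be shared by many of them. RefSeq promoters, 250 bases before to 50 after the annotated start in build GRCm38.p6, were at hand for 32 of the 39 genes, all but Ccne2, Gins1, Gins2, Gins4, Mcm4, Pole and Rfc2. The spellings TTTCCCGC, TTTGGCGC, TTTCGCGC and TTTGCCGC were searched on both strands and counted with overlaps. They occurred in 13 of 32 genes (40.6%), against 704 of the 27025 genes with a promoter at hand (2.605%). The 13 were Cdc6, Cdt1, Gins3, Lig1, Mcm3, Mcm5, Mcm6, Mcm7, Orc1, Pola1, Pold1, Rfc3 and Uhrf1. A CCAAT motif, on either strand, occurred in 20 of 32 (62.5%) against 11096 of 27025 (41.1%). Both motifs occurred in 9 genes, whether in the same promoter or not. Of the 5 promoters printed here, 250 bases before the start to 8 after it, 5′ to 3′ on the gene's strand with E2F motifs in capitals, Rfc3 lay below WT in all 8 knockout libraries, Mcm5 has overlapping motifs, Mcm6 has the most motifs, Pola1 is the gene that lay higher in both knockout strains, and Prim1 has no motif in this window.
Rfc3 (chr5:151651201-151651458, minus strand): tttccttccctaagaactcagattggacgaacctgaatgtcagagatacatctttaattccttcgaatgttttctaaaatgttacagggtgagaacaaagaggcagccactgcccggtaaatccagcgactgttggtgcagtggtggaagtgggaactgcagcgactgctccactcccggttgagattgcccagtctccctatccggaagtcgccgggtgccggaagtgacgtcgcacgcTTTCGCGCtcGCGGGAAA
Mcm5 (chr8:75109259-75109516, plus strand): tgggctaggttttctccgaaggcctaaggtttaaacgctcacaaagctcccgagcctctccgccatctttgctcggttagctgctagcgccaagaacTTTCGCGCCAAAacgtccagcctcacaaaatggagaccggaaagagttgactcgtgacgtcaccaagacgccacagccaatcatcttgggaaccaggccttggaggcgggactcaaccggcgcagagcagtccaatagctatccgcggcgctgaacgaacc
Mcm6 (chr1:128359698-128359955, minus strand): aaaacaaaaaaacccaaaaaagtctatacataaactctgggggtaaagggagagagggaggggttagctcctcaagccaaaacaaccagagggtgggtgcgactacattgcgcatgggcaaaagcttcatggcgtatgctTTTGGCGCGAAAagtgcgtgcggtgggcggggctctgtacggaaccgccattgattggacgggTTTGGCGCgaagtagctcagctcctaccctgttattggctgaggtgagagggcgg
Pola1 (chrX:93632148-93632405, minus strand): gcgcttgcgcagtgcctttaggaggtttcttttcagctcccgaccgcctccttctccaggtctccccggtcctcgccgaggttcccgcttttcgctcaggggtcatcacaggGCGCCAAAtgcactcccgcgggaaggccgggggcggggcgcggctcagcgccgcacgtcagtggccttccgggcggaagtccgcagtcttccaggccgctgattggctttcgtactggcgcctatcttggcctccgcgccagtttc
Prim1 (chr10:128014965-128015222, plus strand): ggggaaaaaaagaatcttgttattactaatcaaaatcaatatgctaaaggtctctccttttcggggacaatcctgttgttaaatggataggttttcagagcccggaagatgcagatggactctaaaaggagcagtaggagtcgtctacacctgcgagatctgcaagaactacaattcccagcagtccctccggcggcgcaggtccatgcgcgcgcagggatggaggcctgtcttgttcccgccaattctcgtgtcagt
In Rfc3 the second motif lies directly at the annotated start, and in Mcm5 and Mcm6 motifs on opposite strands overlap in 1 run of capitals. A match describes letters and shows no binding. A missing match does not show that a gene is outside E2F control, since only 4 spellings in this window were searched. The median log2 fold change in S1pr1_KO against WT was -0.35 over the 13 genes with the motif and -0.62 over the 19 without it, and in C3_KO against WT it was -0.25 and -0.39. Genes without the motif had the more negative median in both comparisons.

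Replication genes lay lower in most S1pr1_KO tumours than in WT tumours, and no gene passed the test. In S1pr1_KO against WT, 38 of 39 had a log2 fold change below 0, against 48.3% of the 30660 genes tested, and 1 had one above 0, against 51.7%. With libraries scaled by luminal epithelium genes in place of TMM, which moved the median of all genes to 0.44, those below 0 numbered 24 of 39, against 26.7% of all genes. Their median log2 fold change was -0.56, with a range of -1.15 to 0.25, beside a median of 0.03 over all genes tested. None of the 39 was called by edgeR's quasi-likelihood test at an adjusted p under 0.05, where percent called was 0 in each direction over all genes, and their adjusted p ran from 0.213 to 0.874. At an unadjusted p under 0.05, 11 were lower and 0 higher, against 7.78% and 7.69% of all genes. In 6 of the 39, Gins1, Gins4, Prim1, Rfc2, Rfc3 and Tyms, every S1pr1_KO library lay below every WT library, against 4.8% of all genes, and in 0 every one lay above, against 2.78%. DESeq2 called 1 of the 39 lower, Rfc3, against 1.28% of all genes, and limma-voom with quality weights called 17 lower, against 14.5%. Without S1pr1_KO replicates 1 and 4 and C3_KO replicate 3, which were rich in salivary or milk transcripts, the median was -0.31 with 34 of 39 lower, against 46.6% of all genes.

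With TMM scaling, C3_KO tumours showed a smaller median difference of the same sign. Luminal epithelium scaling reversed that order of the strains, though not relative to the median of all genes. Again 38 of 39 had a log2 fold change below 0, against 45.8% of all genes, or 35 of 39 against 37.9% with luminal epithelium scaling, and 1 lay above 0, against 54.2%. The median was -0.35, with a range of -0.94 to 0.26, beside 0.05 over all genes. None of the 39 was called by edgeR, where percent called was 0 in each direction, and the adjusted p ran from 0.765 to 0.983. Gins4, Rfc2, Rfc3 and Chaf1b, 4 of 39, were lower at an unadjusted p under 0.05, against 2.61% of all genes, and 0 were higher, against 3.62%. Rfc2 and Rfc3, 2 of 39, lay below WT in every library, against 1.72% of all genes, and 0 lay above, against 1.32%. DESeq2 and limma-voom also called 0 of the 39, against 0.271% and 0.0163% of all genes. Without C3_KO replicate 4 the median was -0.20 with 30 of 39 lower, against 46% of all genes, and without C3_KO replicate 3 it was -0.54 with 39 of 39 lower, against 46.7%. Both comparisons use the same 4 WT libraries, so their signs are not independent of each other.

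**Figure D1:**
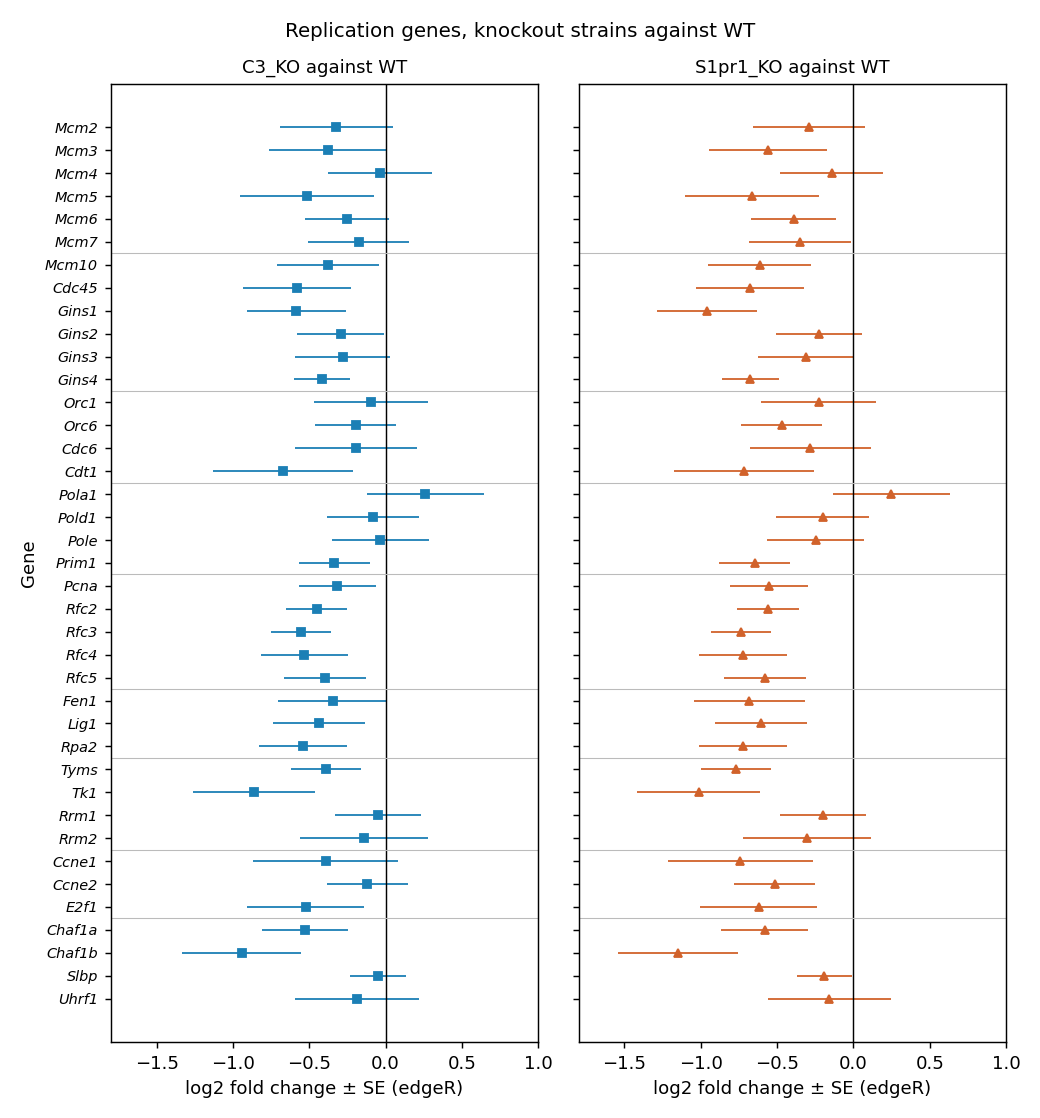
Log2 fold change (x axis) with its SE from edgeR for each of the 39 replication genes (y axis, grouped by role), in C3_KO against WT (left) and S1pr1_KO against WT (right), 4 libraries a genotype with TMM scaling. All but Pola1 lie below 0 in both panels, with Chaf1b lowest at -0.94 and -1.15, and with luminal epithelium scaling 35 and 24 of 39 lie below 0, against 37.9% and 26.7% of all genes.

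Tumours within a genotype differed widely. The mean log2 CPM of the 39 genes was 5.26, 4.86, 5.03 and 4.91 in WT replicates 1 to 4. It was 4.38, 4.87, 5.14 and 4.10 in C3_KO, and 4.01, 4.30, 4.91 and 4.66 in S1pr1_KO. Group means were 5.02 ± 0.18, 4.62 ± 0.47 and 4.47 ± 0.39 (SD, n = 4), so the spread within each knockout strain was larger than that within WT. C3_KO replicate 3 and S1pr1_KO replicate 3 lay within the WT range and C3_KO replicate 2 at its lower edge. C3_KO replicates 1 and 4 and S1pr1_KO replicates 1 and 2 lay lowest. In S1pr1_KO replicate 1, 36 of the 39 genes were below all 4 WT libraries, and in replicates 2, 3 and 4 these were 30, 14 and 21. In C3_KO replicates 1 to 4 they were 35, 13, 5 and 35, and in C3_KO replicate 3 12 genes were above all 4 WT libraries. S1pr1_KO replicate 1 was the lowest of the 12 libraries for 20 genes and C3_KO replicate 4 for 10, and WT replicate 1 was the highest for 16 and C3_KO replicate 3 for 12.

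**Figure D2:**
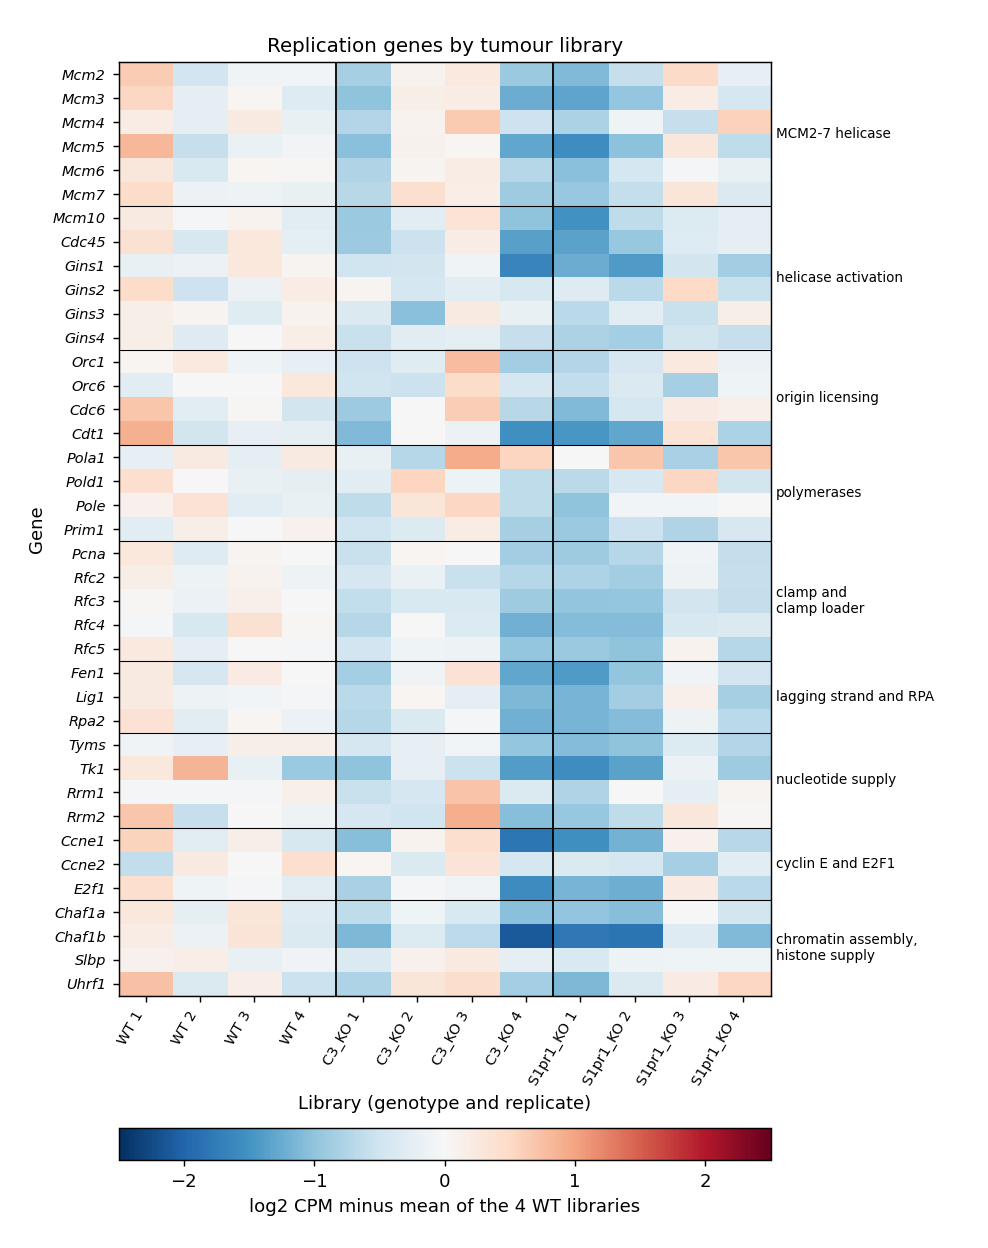
Log2 CPM minus the mean of the 4 WT libraries (colour; blue lower, red higher) for the 39 replication genes (y axis, by role) in the 12 tumour libraries (x axis). C3_KO replicates 1 and 4 and S1pr1_KO replicates 1 and 2 are blue for most genes, while C3_KO replicate 3 and S1pr1_KO replicate 3 mix both colours.

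Among the genes of the MCM2-7 helicase, which unwinds DNA at the fork, all 6 lay below WT in both comparisons with TMM scaling. With luminal epithelium scaling 5 did in C3_KO and 2 in S1pr1_KO, against 37.9% and 26.7% of all genes. Medians with TMM were -0.29 in C3_KO and -0.37 in S1pr1_KO, the second turning to 0.01 with luminal epithelium scaling. Mcm5, a subunit of the gate through which the ring is loaded, stood in replicates 1 to 4 at 151, 57.0, 76.0 and 80.9 CPM in WT, 41.4, 91.4, 88.2 and 34.9 CPM in C3_KO, and 29.1, 41.8, 104 and 54.7 CPM in S1pr1_KO. WT replicate 1 and S1pr1_KO replicate 3 were high, C3_KO replicates 1 and 4 and S1pr1_KO replicates 1 and 2 were low, and the genotypes overlapped. Its log2 fold change was -0.51 in C3_KO (SE 0.44, edgeR adjusted p = 0.79) and -0.67 in S1pr1_KO (SE 0.44, edgeR adjusted p = 0.473), and without WT replicate 1 these were -0.16 and -0.31. Mcm3, its neighbour in the ring, stood at 87.2, 51.2, 63.3 and 49.0 CPM in WT, 30.3, 67.6, 69.1 and 25.9 CPM in C3_KO, and 24.6, 31.0, 69.2 and 45.4 CPM in S1pr1_KO, again with overlap and the same 4 knockout libraries lowest. For both genes S1pr1_KO replicate 4 also lay below all WT libraries, by less. The log2 fold changes of Mcm3 were -0.38 and -0.56 (edgeR adjusted p = 0.817 and 0.493). Mcm2, Mcm4, Mcm6 and Mcm7 lay between -0.32 and -0.04 in C3_KO and between -0.39 and -0.14 in S1pr1_KO.

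Of the helicase activators, all 6 lay lower in both comparisons, and with luminal epithelium scaling Gins2 and Gins3 turned higher in S1pr1_KO. The medians were -0.40 and -0.64. Gins1, a subunit of the GINS complex that completes the active helicase, stood at 10.8, 11.3, 14.8 and 13.04 CPM in WT, 8.73, 8.98, 11.7 and 3.94 CPM in C3_KO, and 5.22, 4.65, 9.05 and 6.81 CPM in S1pr1_KO. All S1pr1_KO libraries lay below all WT libraries, and C3_KO overlapped WT through replicate 3. Against WT, Gins1 was 1.94-fold lower in S1pr1_KO (log2 -0.96, SE 0.33, edgeR adjusted p = 0.241), with -0.58 in C3_KO (SE 0.32, edgeR adjusted p = 0.765). Gins4, another subunit of the complex, stood at 36.0, 25.9, 32.9 and 36.6 CPM in WT, 22.0, 26.7, 28.0 and 21.8 CPM in C3_KO, and 18.7, 18.1, 23.8 and 21.8 CPM in S1pr1_KO. Here too S1pr1_KO lay wholly below WT, and C3_KO replicates 2 and 3 reached above the lowest WT library. Gins4 had a smaller spread than Gins1, with log2 fold changes of -0.42 (SE 0.18, edgeR adjusted p = 0.765) and -0.67 (SE 0.18, edgeR adjusted p = 0.215). Cdc45, the third component of the active helicase, lay at -0.58 and -0.68, Mcm10, which helps to start unwinding, at -0.37 and -0.61, Gins2 at -0.30 and -0.22 and Gins3 at -0.28 and -0.31. The Gins2 value is uncertain, since 67.3% of its exon bases overlap Gse1 on the opposite strand (GENCODE annotation of GRCm38) and the strand handling of the counts is not given.

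Origin licensing genes lay lower in 4 of 4 in both comparisons, with medians of -0.19 in C3_KO and -0.38 in S1pr1_KO, the second turning to 0.04 with luminal epithelium scaling. Orc6, the smallest subunit of the origin recognition complex, stood at 15.2, 18.2, 18.4 and 22.0 CPM in WT, 12.9, 12.7, 25.3 and 13.6 CPM in C3_KO, and 11.9, 14.2, 10.2 and 17.0 CPM in S1pr1_KO. C3_KO replicate 3 was above all WT libraries, and both strains overlapped WT. Log2 fold changes of Orc6 were -0.19 and -0.47 (edgeR adjusted p = 0.867 and 0.401). Cdt1, which brings the helicase to origins and is held in check by geminin, stood at 51.4, 20.2, 24.2 and 23.7 CPM in WT, 12.9, 27.5, 25.1 and 9.58 CPM in C3_KO, and 10.2, 11.3, 35.2 and 16.1 CPM in S1pr1_KO. WT replicate 1 was high and the other 3 WT libraries lay within the range of the knockouts, so its log2 fold changes of -0.67 (SE 0.46, edgeR adjusted p = 0.765) and -0.72 (SE 0.46, edgeR adjusted p = 0.462) shrank to -0.28 and -0.32 without it. Cdc6 lay at -0.19 and -0.28, and Orc1 at -0.09 and -0.23.

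The polymerase genes did not lie on 1 side. Prim1, the catalytic primase subunit, stood at 19.6, 26.2, 23.9 and 25.5 CPM in WT, 16.8, 18.7, 26.8 and 13.3 CPM in C3_KO, and 12.5, 16.4, 14.0 and 17.99 CPM in S1pr1_KO. All S1pr1_KO libraries were below all WT libraries, while C3_KO replicate 3 was the highest of the 12. Its log2 fold change was -0.65 in S1pr1_KO (SE 0.23, edgeR adjusted p = 0.25) and -0.34 in C3_KO (SE 0.23, edgeR adjusted p = 0.765). Pola1, the catalytic subunit of polymerase alpha, which works in 1 complex with primase, was picked out after its values were seen, as the gene above 0 in both comparisons. It stood at 10.4, 13.9, 10.0 and 13.9 CPM in WT, 10.5, 7.23, 22.7 and 17.3 CPM in C3_KO, and 11.9, 19.3, 6.83 and 19.3 CPM in S1pr1_KO. C3_KO replicates 3 and 4 and S1pr1_KO replicates 2 and 4 were above all WT libraries, while C3_KO replicate 2 and S1pr1_KO replicate 3 were below them. The log2 fold changes of Pola1 were 0.26 and 0.25 with SEs of 0.38 and 0.38 (edgeR adjusted p = 0.874 and 0.78), and without C3_KO replicate 3 the first was -0.05. Pole, the catalytic subunit of the leading strand polymerase, stood at 18.3, 21.8, 13.8 and 14.9 CPM in WT, 10.8, 21.0, 24.4 and 10.9 CPM in C3_KO, and 8.46, 16.2, 16.2 and 17.1 CPM in S1pr1_KO, with overlap in both comparisons. It lay at log2 -0.04 in C3_KO and -0.25 in S1pr1_KO (edgeR adjusted p = 0.983 and 0.732), the second turning to 0.14 with luminal epithelium scaling. Pold1, the catalytic subunit of polymerase delta, lay at -0.08 and -0.20.

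The clamp and clamp loader genes lay lower in 5 of 5 in both comparisons, also with luminal epithelium scaling, with medians of -0.45 in C3_KO and -0.58 in S1pr1_KO. Rfc3, a small subunit of the loader that opens the clamp, stood at 28.0, 25.0, 30.3 and 27.3 CPM in WT, 18.1, 21.3, 21.1 and 15.0 CPM in C3_KO, and 14.0, 14.1, 20.1 and 18.3 CPM in S1pr1_KO. Every library of both knockout strains lay below every WT library. Rfc3 was 1.66-fold lower in S1pr1_KO (log2 -0.73, SE 0.20, edgeR adjusted p = 0.213), the smallest p of the 39 genes, and 1.47-fold lower in C3_KO (log2 -0.55, SE 0.20, edgeR adjusted p = 0.765). With luminal epithelium scaling both strains overlapped WT for this gene. Rfc2, another small subunit, stood at 77.1, 63.7, 73.8 and 63.5 CPM in WT, 52.0, 61.7, 47.3 and 42.4 CPM in C3_KO, and 40.6, 38.1, 63.3 and 46.7 CPM in S1pr1_KO. Both strains lay below WT, S1pr1_KO replicate 3 by a narrow margin and, with the size factors of another method (RLE), no longer. Its log2 fold changes were -0.45 (SE 0.20, edgeR adjusted p = 0.765) and -0.56 (SE 0.20, edgeR adjusted p = 0.249). Rfc4 lay at -0.53 and -0.72, Rfc5 at -0.40 and -0.58, and Pcna, the clamp itself, at -0.32 and -0.55. Of these, Rfc2, Rfc4 and Rfc5 share 15.1%, 12.7% and 10.7% of their exon bases with genes on the opposite strand, and the processed copy Pcna-ps2 held a count of 5.49 to 9.57% of that of Pcna.

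Lagging strand and RPA genes lay lower in 3 of 3 in both comparisons, also with luminal epithelium scaling, with medians of -0.43 and -0.68. Rpa2, a subunit of the protein that coats single-stranded DNA, stood at 46.4, 29.8, 37.6 and 32.8 CPM in WT, 22.1, 28.2, 34.8 and 15.7 CPM in C3_KO, and 16.2, 17.0, 33.0 and 22.7 CPM in S1pr1_KO. C3_KO replicate 3 and S1pr1_KO replicate 3 reached into the WT range, and the other knockout libraries were below it. Log2 fold changes of Rpa2 were -0.54 (SE 0.29, edgeR adjusted p = 0.765) and -0.72 (SE 0.29, edgeR adjusted p = 0.276). Lig1, the ligase that seals lagging strand pieces, stood at 101, 78.8, 82.9 and 85.1 CPM in WT, 54.5, 89.4, 73.9 and 39.7 CPM in C3_KO, and 38.6, 47.1, 94.1 and 49.0 CPM in S1pr1_KO. C3_KO replicate 2 and S1pr1_KO replicate 3 lay inside the WT range and the others below it. It had log2 fold changes of -0.43 and -0.60 (edgeR adjusted p = 0.765 and 0.353). Fen1, the flap nuclease of this step, lay at -0.35 and -0.68, and 78.8% of its exon bases overlap the antisense gene Gm10143.

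Nucleotide supply genes lay lower in 4 of 4 in both comparisons, by amounts that differed between genes. Those differences between genes were not tested. Tyms, which makes thymidylate, stood at 37.5, 34.3, 44.0 and 43.7 CPM in WT, 29.7, 34.3, 37.6 and 20.3 CPM in C3_KO, and 18.7, 19.8, 31.1 and 24.0 CPM in S1pr1_KO. All S1pr1_KO libraries were below all WT libraries, and C3_KO replicate 3 reached into the WT range. Tyms was 1.70-fold lower in S1pr1_KO (log2 -0.77, SE 0.23, edgeR adjusted p = 0.228), with -0.39 in C3_KO (SE 0.23, edgeR adjusted p = 0.765). Tk1, the thymidine kinase of the salvage route, stood at 88.7, 132, 64.7 and 38.8 CPM in WT, 36.5, 63.7, 50.5 and 27.9 CPM in C3_KO, and 25.2, 29.1, 66.7 and 39.5 CPM in S1pr1_KO. WT varied most here, with a coefficient of variation of 48.9%. Its replicate 4 lay among the knockout libraries, and its replicate 3 lay below S1pr1_KO replicate 3. The log2 fold changes of Tk1 were -0.86 (SE 0.40, edgeR adjusted p = 0.765) and -1.01 (SE 0.40, edgeR adjusted p = 0.273). Rrm1 and Rrm2, the subunits of ribonucleotide reductase, lay nearer to WT, at -0.05 and -0.14 in C3_KO and -0.20 and -0.31 in S1pr1_KO, and turned higher in S1pr1_KO with luminal epithelium scaling.

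The genes of cyclin E and E2F1, which drive entry into S phase, lay lower in 3 of 3 in both comparisons, also with luminal epithelium scaling, with medians of -0.39 and -0.62. Ccne2, 1 of the pair of cyclin E genes, stood at 9.48, 17.1, 14.5 and 19.4 CPM in WT, 15.2, 11.4, 18.2 and 10.9 CPM in C3_KO, and 11.4, 10.7, 8.198 and 12.0 CPM in S1pr1_KO, with WT replicate 1 low and overlap in both comparisons. It lay at log2 -0.12 and -0.52 (edgeR adjusted p = 0.921 and 0.365), and without WT replicate 4 the first was 0.05. E2f1, an activator of the genes described here, stood at 23.0, 15.9, 16.7 and 14.0 CPM in WT, 9.70, 16.9, 16.1 and 5.78 CPM in C3_KO, and 7.63, 7.29, 19.6 and 10.7 CPM in S1pr1_KO. The lowest values came from C3_KO replicate 4 and S1pr1_KO replicates 1 and 2, and S1pr1_KO replicate 3 was among the highest. Its log2 fold changes were -0.52 and -0.62 (edgeR adjusted p = 0.766 and 0.444). Ccne1 lay at -0.39 and -0.74.

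The chromatin genes held the most negative of the 39 log2 fold changes. Chaf1b, a subunit of chromatin assembly factor 1 that places histones behind the fork, stood at 50.7, 40.4, 55.7 and 34.6 CPM in WT, 20.6, 35.0, 28.3 and 10.5 CPM in C3_KO, and 12.9, 12.5, 35.8 and 20.8 CPM in S1pr1_KO. C3_KO replicate 2 and S1pr1_KO replicate 3 lay just above the lowest WT library and the other 6 knockout libraries were below all WT libraries. Chaf1b was 1.92-fold lower in C3_KO (log2 -0.94, SE 0.39, edgeR adjusted p = 0.765) and 2.21-fold lower in S1pr1_KO (log2 -1.15, SE 0.39, edgeR adjusted p = 0.242). With luminal epithelium scaling, Chaf1b lay below WT in every library of both strains, against 1.72% of all genes in C3_KO and 1.82% in S1pr1_KO, and it was the 1 gene of the 39 to do so in S1pr1_KO. Chaf1a, the large subunit of the same factor, stood at 125, 87.6, 127 and 82.7 CPM in WT, 66.8, 96.0, 80.0 and 49.9 CPM in C3_KO, and 52.6, 49.5, 105 and 75.2 CPM in S1pr1_KO, with overlap in both comparisons. Its log2 fold changes were -0.53 and -0.58 (edgeR adjusted p = 0.765 and 0.345), and 52.5% of its exon bases overlap Ubxn6 on the opposite strand. Slbp, which binds histone mRNA, lay at -0.05 and -0.19, and Uhrf1, which reads hemimethylated DNA at the fork, at -0.19 and -0.16. The 2 genes turned higher in S1pr1_KO with luminal epithelium scaling.

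**Figure D3:**
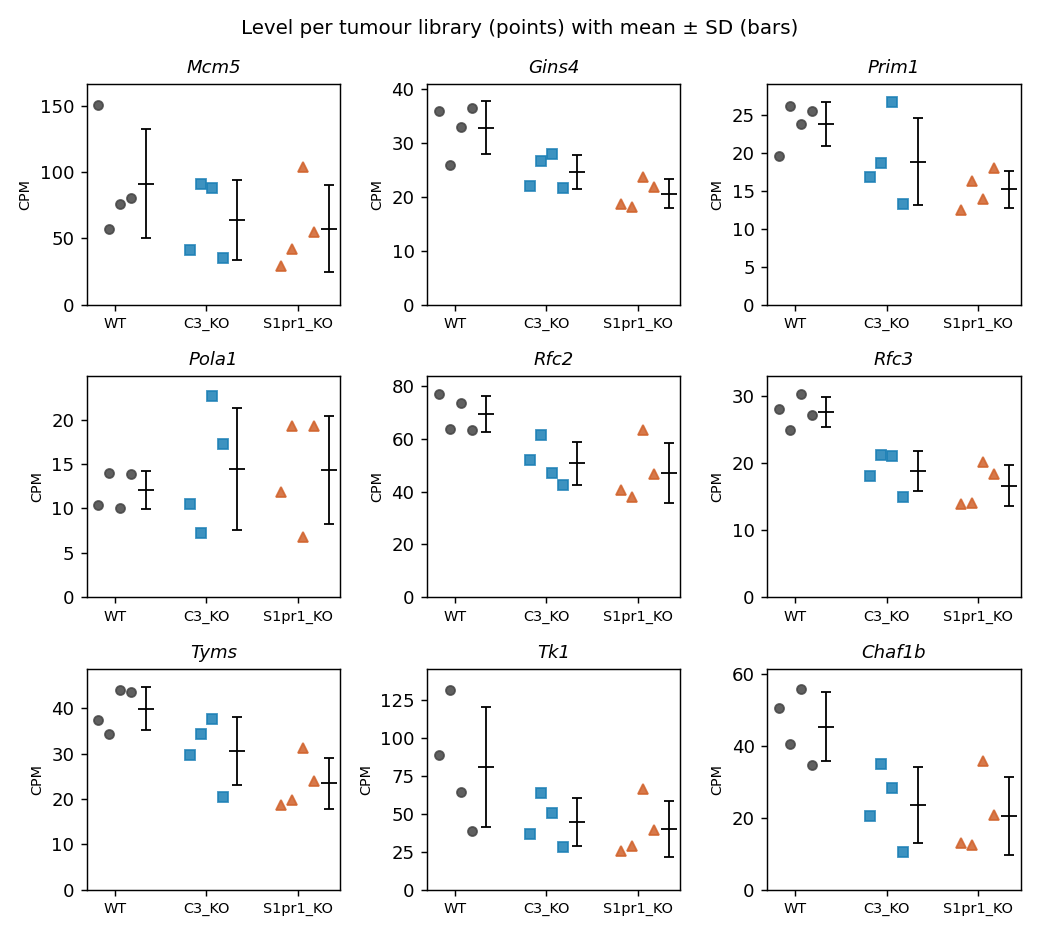
CPM per tumour library (y axis, from 0; points) with mean ± SD (bars) for 9 replication genes in WT, C3_KO and S1pr1_KO (x axis), replicates 1 to 4 from left to right. For Rfc3 all 8 knockout points lie below the 4 WT points, for Gins4, Prim1 and Tyms this holds for S1pr1_KO, and for Pola1 the knockout points lie on both sides of WT.

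The 39 genes differed in level and in spread. Per length, in WT, Pcna was highest at 49.0 ± 5.20 FPKM (SD, n = 4), where FPKM are counts scaled to gene length and total count, followed by Gins4 at 22.7, Fen1 at 21.2 and Mcm5 at 21.0 FPKM, and these last 3 lay within each other's spread. The catalytic polymerase genes Pole and Pola1 were low at 1.45 and 1.29 FPKM, and Orc1 was lowest at 0.803 FPKM. Within WT the coefficient of variation of CPM ran from 6.13% for Rrm1 to 48.9% for Tk1. Over all 12 libraries, Slbp varied least, with its highest library 1.53 times its lowest. Cdt1, Chaf1b, Tk1 and Mcm5 varied most, by 5.37, 5.33, 5.24 and 5.19 times.

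Shorter genes of the set had the more negative values. The 13 genes of 1349 to 3479 bases had a median log2 fold change in S1pr1_KO against WT of -0.67, beside -0.05 for all tested genes in that length range. In the middle 13, of 3495 to 4669 bases, it was -0.56 beside -0.02, and in the 13 longest, of 4681 to 11160 bases, -0.29 beside 0.10. In S1pr1_KO all tested genes thus shifted with length in the same direction, by less. In C3_KO against WT the medians were -0.39, -0.34 and -0.32, beside -0.01, 0.02 and 0.10. The part of gene length in these differences was not tested.

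Beyond the 39 genes, 78 other genes of replication and the G1/S transition, in lists set by function, lay less far from WT. In S1pr1_KO, 61 of the 78 lay lower, against 48.3% of all genes, with a median of -0.30. There 0 were called by edgeR, and 12 were lower and 0 higher at an unadjusted p under 0.05, against 7.78% and 7.69%. Of the 78, 6 lay below WT in every S1pr1_KO library, against 4.8%. In C3_KO, 49 of 78 lay lower, against 45.8% of all genes, with a median of -0.13. Here 0 were called by edgeR, and 3 were lower and 0 higher at an unadjusted p under 0.05, against 2.61% and 3.62%. Of the 78, 1 lay below WT in every C3_KO library, against 1.72%. The C3_KO counts by unadjusted p and by overlap were near the shares of all genes. The 9 other nucleotide and chromatin genes had a median of -0.63 in S1pr1_KO, with the histone chaperone gene Nasp at log2 -0.63. Among the 15 other licensing and firing factors, 11 lay lower in S1pr1_KO, against 48.3% of all genes, and 8 did with RLE size factors. With luminal epithelium scaling 3 did, against 26.7% of all genes. Gmnn, which encodes the Cdt1 inhibitor geminin, stood at 9.50 ± 3.31 against 17.5 ± 0.802 CPM (SD, n = 4; log2 -0.88, edgeR adjusted p = 0.29), and Dbf4, the activator of the Cdc7 kinase, at log2 -0.52.

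Of 14 other polymerase, loader and RPA subunits, 13 lay lower in S1pr1_KO, against 48.3% of all genes, and 9 with luminal epithelium scaling, against 26.7%. Among them were Pole3 at log2 -0.56 and Prim2, the partner of Prim1, at -0.56. All 10 fork protection and maturation genes lay lower in S1pr1_KO, and 6 with luminal epithelium scaling, against the same shares of all genes. Rnaseh2a and Rnaseh2c, subunits of the enzyme that removes ribonucleotides from DNA, were at -0.88 and -0.73. The 30 G1/S regulators, which include inhibitors as well as activators, had a median of -0.19, with 20 lower, against 48.3% of all genes. With luminal epithelium scaling 8 were lower, against 26.7%, so that count was near the share of all genes. Cdk4, the kinase partner of D cyclins, was at 209.8 ± 69.4 against 350.4 ± 24.9 CPM (SD, n = 4; log2 -0.74, edgeR adjusted p = 0.25), and the repressor gene E2f4 at log2 -0.55. The 20 mitosis genes, expressed later in the cycle, lay lower in 20 of 20 in S1pr1_KO, against 48.3% of all genes, with a median of -0.46. With luminal epithelium scaling 11 of 20 did, against 26.7%. In C3_KO the mitosis genes lay lower in 16 of 20, against 45.8% of all genes, with a median of -0.26. Birc5, the survivin gene of the chromosomal passenger complex, was at log2 -1.15 in C3_KO and -1.60 in S1pr1_KO (edgeR adjusted p = 0.765 and 0.204), and Nusap1, a spindle protein gene, at -0.37 and -0.75. The mean log2 CPM of the replication genes minus that of the mitosis genes ran from -0.89 to -0.44 in WT, -0.97 to -0.27 in C3_KO and -0.61 to -0.41 in S1pr1_KO, so the ranges overlapped.

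Markers of other cell types differed between the tumours as well. In whole tumours, fewer cells of a type and less RNA per cell cannot be told apart. Summed over 10 white adipocyte markers, levels were 32.8 to 335 CPM in WT, 108 to 331 CPM in C3_KO and 55.3 to 1263 CPM in S1pr1_KO, with 1263 and 1087 CPM in S1pr1_KO replicates 1 and 2. Summed over 10 B cell markers they were 3.49 to 6.12, 2.20 to 18.4 and 3.96 to 189.9 CPM, with 189.9 and 107 CPM in the same libraries. These 2 tumours had the lowest replication levels of their strain. In S1pr1_KO against WT, 10 of 10 adipocyte markers lay higher with a median log2 fold change of 2.66, and 10 of 10 B cell markers with 4.18. Of all genes, 51.7% lay higher. The 10 blood endothelium markers, all higher with a median of 0.77, summed to 91.0 to 182, 165 to 211 and 176 to 305 CPM. The 10 T cell markers summed to 11.8 to 23.1, 9.79 to 39.5 and 14.5 to 66.0 CPM, and the 10 fibroblast markers to 1459 to 4154, 2353 to 4500 and 2115 to 4110 CPM. No marker of these lists was at 0 in all 4 libraries of a genotype. Of the C3_KO tumours low in replication genes, replicate 4 had 108 CPM of adipocyte and 4.85 CPM of B cell markers, both within the WT ranges. Replicate 1 had 331 CPM of adipocyte markers, near the top of the WT range and above it by mean log2 CPM (4.17 against at most 3.94), and 18.4 CPM of B cell markers, above the WT range. Without S1pr1_KO replicates 1 and 2, a check added after the values were seen, the median log2 fold change of the replication genes in S1pr1_KO was -0.23. Of the 39, 30 lay lower, against 52.4% of all genes. The same 6 genes lay below WT in every library, against 7.34% of all genes. Genes can leave this count only through rescaling when libraries are left out, so that those 6 stayed was nearly fixed in advance. The part of these cell types in the result was not tested further.

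The epithelium itself also varied. The 15 luminal epithelium markers summed to 4790 to 9371 CPM in WT, 4289 to 7404 CPM in C3_KO and 3504 to 7906 CPM in S1pr1_KO. In S1pr1_KO 12 of 15 lay lower, against 48.3% of all genes, with a median log2 fold change of -0.35. The mean log2 CPM of the replication genes minus that of the luminal genes was -3.26, -2.87, -2.93 and -3.09 in WT replicates 1 to 4. It was -3.46, -3.39, -2.98 and -3.42 in C3_KO, and -3.36, -3.16, -3.49 and -2.75 in S1pr1_KO. Relative to luminal genes, 3 of 4 C3_KO tumours lay below all WT tumours, as did 2 of 4 S1pr1_KO tumours, and S1pr1_KO replicate 4 was highest of the 12. Scaling by the luminal genes moved the median of all genes to 0.16 in C3_KO and 0.44 in S1pr1_KO. The median of the replication genes was then -0.30 and -0.21, which is -0.46 and -0.65 relative to all genes, beside -0.40 and -0.59 with TMM.

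**Figure D4:**
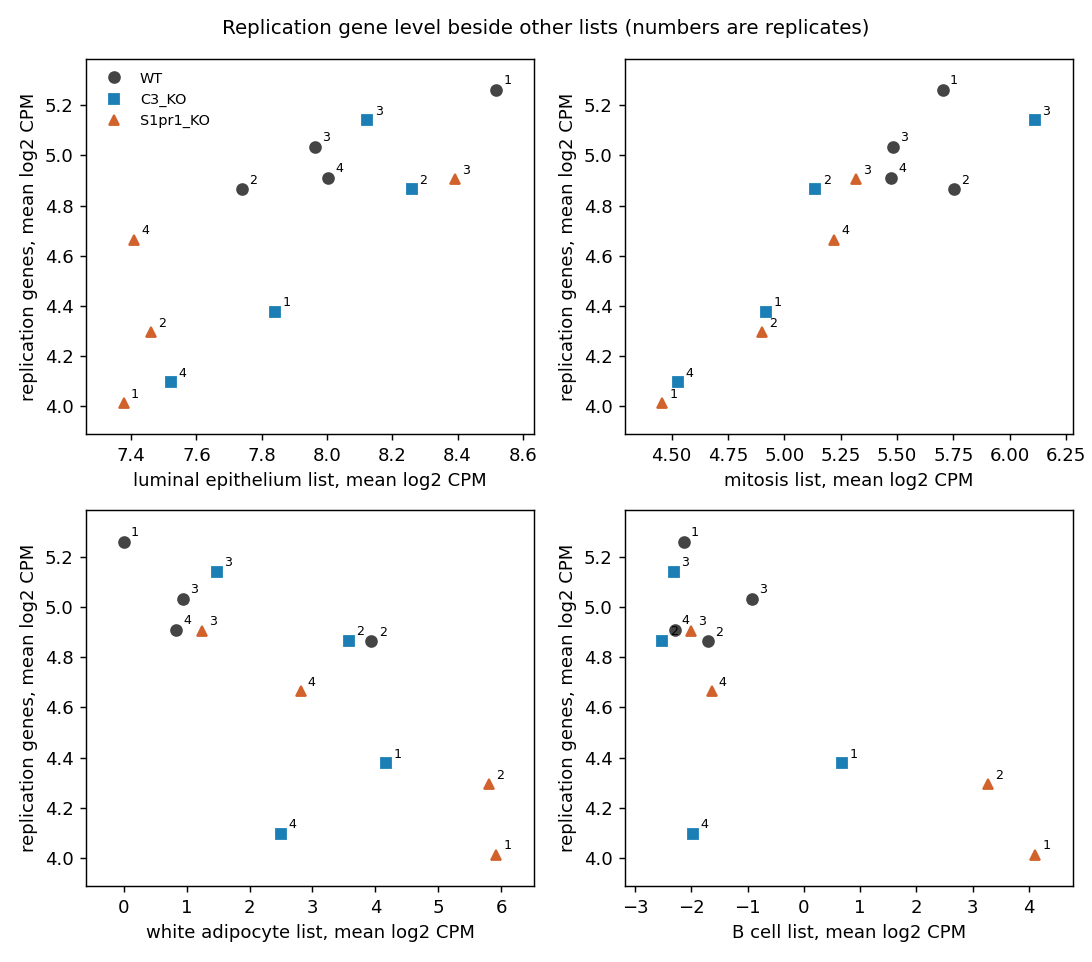
Mean log2 CPM of the 39 replication genes (y axes) against that of the luminal epithelium, mitosis, white adipocyte and B cell lists (x axes) in each tumour library, with symbols for genotype and numbers for replicates. The lowest replication levels, 4.01 to 4.38, belong to S1pr1_KO replicates 1 and 2 and C3_KO replicates 1 and 4, of which S1pr1_KO replicates 1 and 2 are also highest in adipocyte and B cell genes.

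The 2 knockout strains did not part in these genes. In S1pr1_KO against C3_KO, 36 of 39 lay lower with a median log2 fold change of -0.16, against 53.8% of all genes and a median of -0.03, and 3 lay higher, against 46.2%. With luminal epithelium scaling 34 of 39 lay higher, against 77.4% of all genes, and their median of 0.13 lay below the 0.27 of all genes by 0.13, as with TMM. None was called by edgeR, where percent called was 0 in each direction, and 0 reached an unadjusted p under 0.05, against 1.63% of all genes lower and 1.77% higher. In 0 of 39 genes did the strains not overlap, against 0.838% of all genes lower and 0.476% higher. The log2 fold changes ran from -0.40 to 0.07. The median turned to 0.22 without C3_KO replicate 3 and S1pr1_KO replicates 1 and 4 together, and to 0.02 without C3_KO replicate 3 alone or S1pr1_KO replicate 1 alone.

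Single tumours set how many genes parted from WT. Without S1pr1_KO replicate 3, the S1pr1_KO tumour with the highest replication level, 18 of 39 genes lay below WT in every S1pr1_KO library, against 14.1% of all genes, and edgeR called 3 of 39 lower, Chaf1b, Rfc3 and Tyms, against 2.7% of all genes. Without WT replicate 2 the count was 11, against 8.35%, and without S1pr1_KO replicate 4 it was 9, against 6.24%. In C3_KO, without replicate 3, 11 of 39 lay below WT in every library, against 3.24%, without replicate 2 5 did, against 6.52%, and without the 3 libraries rich in salivary or milk transcripts 9 did, against 2.96%. Without WT replicate 2 or WT replicate 4 the C3_KO count was 4, against 6.46% and 2.3% of all genes. Rfc2 and Rfc3 were in the C3_KO count whichever single library was left out. The same held for Gins1, Gins4, Prim1, Rfc3 and Tyms in the S1pr1_KO count. Leaving out a library can make genotypes overlap only through rescaling, so this outcome was nearly fixed in advance. With luminal epithelium scaling none of these genes stayed apart. The genes below WT were then Cdt1, Chaf1a, Chaf1b and Rpa2 in C3_KO, 4 of 39 against 1.72% of all genes. In S1pr1_KO it was Chaf1b, 1 of 39 against 1.82%.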

How the data were processed

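Total RNA of 12 tumours was sequenced, 4 for each genotype, grouped by the genotype label. Replicates were numbered in accession order and only name a library. The authors deposited a table of whole-number counts per gene for all 12 libraries, a table of FPKM and a column of gene lengths in bases, used here as another measure beside them. Of the 682320 deposited FPKM values, 682317 are 1000000000 times the count over length and column total, within a relative tolerance of 0.0001. StringTie and build GRCm39 are named in the submitters' processing notes, while the sources used here name no aligner, counter or strand setting. Counts from 1 to 50 were even in 60.2 to 64.4% of values, and the reason was not tested.

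Counts were tested with edgeR 4.0.16 in R 4.3.3: filterByExpr left 30660 genes, libraries were scaled by TMM, and a robust quasi-likelihood test took all 12 libraries, 1 mean per genotype, leaving 9 residual degrees of freedom. Benjamini-Hochberg adjustment ran over all genes tested, and an adjusted p under 0.05 was called. The procedure was first tested on simulated data. List levels are mean log2 CPM with a prior count of 2. Alternatives were RLE size factors, scaling by 15 luminal epithelium genes, DESeq2 1.42.0, limma 3.58.1 (voom with quality weights, and on log2(FPKM + 1)), no filter, only the 2 genotypes compared, and leaving out libraries. All 39 genes passed the filter on low counts.

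The genes, lists and tests were chosen with earlier results of these data known. In each role, values in every library are given for the 2 genes of smallest p in S1pr1_KO against WT and the 1 of smallest p in C3_KO against WT, plus Pola1, and for each other pathway list the 2 genes of smallest p in S1pr1_KO against WT are named, except for 1 gene that is not reported here. RefSeq and GENCODE sequences and overlaps come from GRCm38, an older build than that of the counts, and no coordinate was converted.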

Additional observations from a re-analysis of the deposited data

Results flagged for a closer look

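Among 147 groups of 4 libraries examined, 8 held a library far from the other 3, near the rate of about 1 in 20 that chance gives. Far means a gap to the nearest neighbour, as a share of the group's range, above Dixon's critical value. WT replicate 1 stood high for Mcm7 at 124.7 CPM and for Cdt1 at 51.42 CPM. C3_KO replicate 3, the library rich in milk transcripts, stood high for Orc6 at 25.26 CPM and for Rrm1 at 132.1 CPM, and Rrm1 was also high in WT replicate 4 at 87.54 CPM. S1pr1_KO replicate 3 stood high for Pold1 at 50.47 CPM. S1pr1_KO replicate 1, the library richest in salivary, adipocyte and B cell transcripts, stood low for Pole at 8.459 CPM and for Slbp at 24.7 CPM. The cause was not tested in any of these.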

How the results depend on the processing

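Called genes, 0 in each comparison with edgeR over all 12 libraries (1909, 4743 and 1042 at an unadjusted p under 0.05), depended on the tool and on single libraries. In C3_KO against WT, DESeq2 called 82 genes, limma-voom 5 and limma on log2(FPKM + 1) 1, and leaving out 1 library gave 0 to 8, the most without S1pr1_KO replicate 3. In S1pr1_KO against WT, DESeq2 called 930, limma-voom 7828, limma on log2(FPKM + 1) 33, luminal epithelium scaling 27, no filter 10 and a fit of only the 2 genotypes 68, and leaving out 1 library gave 0 to 1330, the most without S1pr1_KO replicate 3. In S1pr1_KO against C3_KO, DESeq2 called 106, and leaving out 1 library gave 0 to 3. Of the replication genes in S1pr1_KO against WT, DESeq2 called 1 (Rfc3, log2 fold change -0.70, adjusted p = 0.0448, range over 21 alternatives 0.00514 to 0.999) and limma-voom 17, and leaving out 1 library gave 0 to 3. Their median there moved to -0.21 with luminal epithelium scaling and to -0.23 without S1pr1_KO replicates 1 and 2, chosen after seeing the data, and lay between -0.69 and -0.39 when 1 library was left out. In C3_KO against WT the median lay between -0.54 and -0.20, and in S1pr1_KO against C3_KO between -0.33 and 0.02. Of 31 named genes, 4 turned direction in C3_KO against WT: Ccne2 to 0.0126 and Pole to 0.0147 on log2(FPKM + 1), Pola1 to -0.0072 without the 3 libraries rich in salivary or milk transcripts, and, leaving out 1 library, Ccne2 with a range of -0.29 to 0.0528, Pole of -0.27 to 0.12, Pola1 of -0.0471 to 0.48 and Dbf4 of -0.70 to 0.12. In S1pr1_KO against WT, Pole turned to 0.14 with luminal epithelium scaling and ran from -0.34 to 0.0024 when 1 library was left out. The cause of these changes was not tested. The other values of these genes kept their direction, and 33 of them, in 23 genes of S1pr1_KO against WT, passed the threshold under an alternative. Values of single genes in S1pr1_KO against C3_KO were not recomputed, since none is given. No paired analysis was possible because the labels give the genotypes no shared replicate numbers.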
